A study of Mus musculus with 23 samples.

Results

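The nuclear genes of oxidative phosphorylation encode most subunits of the 4 respiratory chain complexes and of ATP synthase. The members were the protein-coding genes on chromosomes 1 to 19, X and Y whose symbols start with Nduf, Uqcr or Atp5, the Sdha to Sdhd genes, and Cox genes numbered 4 to 8. In the RefSeq gene table (GRCm38.p6, the assembly behind mm10) 96 of 21887 protein-coding genes met this rule. They comprised 39 complex I subunit genes, 8 complex I assembly factor genes, 4 genes of complex II, 8 of complex III, 20 of complex IV and 17 of ATP synthase. Ndufa4 and its relative Ndufa4l2 were counted with complex IV, of which Ndufa4 is a subunit despite its symbol. Mitochondrially encoded genes were outside the rule.

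Complexes I and II pass electrons from NADH and succinate to ubiquinone, complex III passes them to cytochrome c, and complex IV, cytochrome c oxidase, passes them to oxygen. The proton gradient built along the way drives ATP synthase, also called complex V. Naive T cells are known to draw much of their energy from this pathway, while activation adds aerobic glycolysis. Several complex IV subunits have paired isoforms, a widely expressed gene and a gene restricted to muscle, testis or lung.

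CUT&Tag, in which an antibody tethers a transposase that cuts nearby DNA, was run on naive CD4 T cells, taken from spleen and from what the labels call pLN lymph nodes, of DDX55 KO and WT mice. DDX55 is a DEAD-box RNA helicase. RNA polymerase II, H3K9me3 and DDX55 were each profiled in 2 DDX55 KO and 2 WT samples. DNA-RNA hybrids (R-loops) were profiled with the S9.6 antibody in 2 RNase H-treated (20 U) and 2 untreated DDX55 KO samples, and in 2 RNase H-treated and 2 untreated WT samples. An HA tag (2 samples) and IgG (1 sample), all WT, make up the 23 samples. The labels used here do not say how the knockout was made or whether samples came from separate mice. The values analysed were 1 merged peak list per target, with positions only and no score, height or depth, and with DDX55 KO and WT samples in the same list. Differences between DDX55 KO and WT cells, the effect of RNase H and the spread between replicates were therefore not analysed here.

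The RNA polymerase II list held 10924 peaks, the H3K9me3 list 16738, the R-loop list 1499 and the DDX55 list 243. As a check of the labelled cells, RNA polymerase II peaks lay near the ends of 8 of 8 T cell genes (among them Cd3e, Cd4 and Lck) and of 3 of 5 naive T cell genes (Ccr7, Il7r and Lef1). They lay near 0 of 2 CD8 T cell, 1 of 4 B cell (Cd79a), 0 of 4 myeloid, 0 of 3 NK cell, 0 of 3 erythroid, 0 of 5 muscle and 0 of 4 testis genes. A peak was counted as near a gene end when it shared at least 1 bp with the 3000 bp on either side of the first or last base of the gene span.

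RNA polymerase II peaks lay near an end of 65 of the 96 oxidative phosphorylation genes (67.7%, 95% exact interval 57.4 to 76.9), against 33.5% of all protein-coding genes. In the span, 62 members held a peak (64.6%), against 32.2% of all genes. Either place counted for 67 members (69.8%), against 36.5% of all genes. The spans of members were shorter, with a median of 7228 bp against 17169 bp for all genes, so members offered less sequence for a peak to fall in. Peaks are not replicated in these lists, and the members were chosen by symbol. The shares are therefore descriptions, and the intervals cover counting error only.

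**Figure D1:**
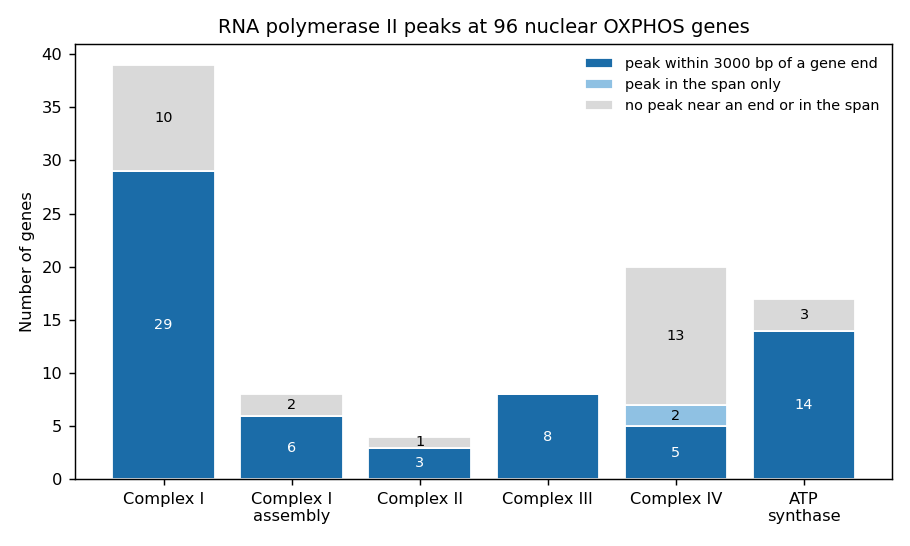
Number of member genes (y axis) in each respiratory complex (x axis), split by the place of RNA polymerase II peaks: near a gene end, in the span only, or in neither place. All 8 complex III genes had a gene-end peak, whereas 13 of 20 complex IV genes had none in either place.

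The share of genes with a peak varied between complexes. Complex III had a gene-end peak at 8 of 8 genes, ATP synthase at 14 of 17 (82.4%), complex II at 3 of 4, the complex I assembly factors at 6 of 8 and complex I at 29 of 39 (74.4%). Complex IV had one at 5 of 20 (25%, 95% exact interval 8.66 to 49.1), and this interval held the 33.5% of all protein-coding genes. Without its tissue-restricted isoforms, a set chosen after seeing the data, complex IV had one at 5 of 12 (41.7%). The interval for complex I was 57.9 to 87.0 and that for ATP synthase 56.6 to 96.2, and neither met the interval of complex IV. That separation was lost when peaks were counted from starts. Complex IV then had 7 of 14 genes (50%, interval 23.0 to 77.0), complex I 73.5% (55.6 to 87.1) and ATP synthase 73.3% (44.9 to 92.2). The start count added Cox5a and Cox7a2, whose peaks covered their starts. It also left out Cox4i1, Cox4i2, Cox6a2, Cox6c, Cox8c and Ndufa4l2, which have no tabulated start and all lacked a peak. Part of the rise in the complex IV share thus comes from the smaller set of genes. No test of the difference between complexes was made. Of the 18 Cox genes alone, 4 had a gene-end peak.

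Within complex IV the tissue-restricted isoforms had a gene-end peak at 0 of 8 genes (exact interval 0 to 36.9%). The widely expressed genes had one at 5 of 12 (41.7%), against 33.5% of all protein-coding genes. The interval for the restricted isoforms held that 33.5%, so their count alone does not set them apart from all genes. The difference between restricted and widely expressed genes was not tested. The 5 widely expressed genes with a gene-end peak were Cox6a1 (780 bp), Cox7a2l (718 bp), Cox7c (447 bp), Cox8a (521 bp) and Ndufa4 (1395 bp). Cox7a2l encodes a factor that joins complexes III and IV into supercomplexes, and was counted here with the widely expressed genes. Cox5a and Cox7a2 were another pair of widely expressed genes with a peak in the span but away from its ends. The Cox5a peak (702 bp, chr9:57521209-57521910) lay 3881 bp from the nearer end of the span. It covered the transcription start in the RefSeq start table, with edges at -23 and 678 bp relative to it. The Cox7a2 peak (716 bp, chr9:79759538-79760253) lay 4297 bp from the nearer end, and likewise covered the tabulated start, with edges at -400 and 315 bp relative to it. The spans of these genes thus run beyond the start at which the peak lay. With those peaks counted, 7 of 12 widely expressed complex IV genes had a peak near an end or in the span. The share of all protein-coding genes was 36.5%.

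**Figure D2:**
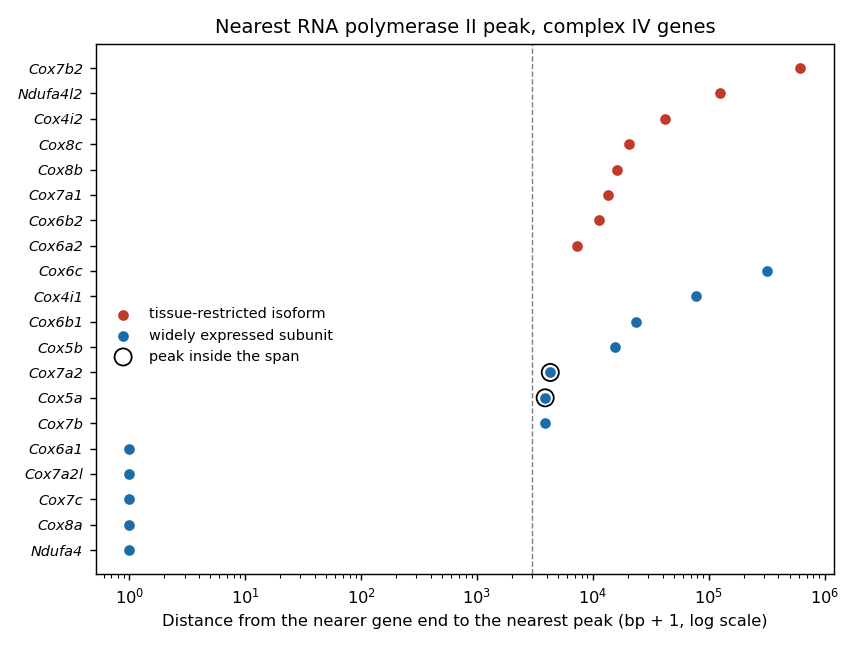
Distance in bp (log scale, plus 1) from the nearer gene end to the nearest RNA polymerase II peak for the 20 complex IV genes. Tissue-restricted isoforms, with Ndufa4l2 counted among them, stand above widely expressed genes, with Cox7a2l counted among those. The dashed line marks the 3000 bp window, and rings mark Cox5a and Cox7a2, whose peak lay inside the span. All 8 restricted isoforms lie at 7294 bp or farther, and 5 widely expressed genes lie at a peak.

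Set pair by pair, the isoforms were as follows. Cox6a2, the heart and skeletal muscle form of subunit 6A, had its nearest RNA polymerase II peak at 7294 bp, while Cox6a1 had one across its start. Cox7a1, the muscle form of subunit 7A, was 13598 bp from a peak, while Cox7a2 had a peak on its start. Cox8b, the muscle form of subunit 8, was 16337 bp away and Cox8c, the testis form, 20551 bp, while the Cox8a peak had its edges at -255 and 265 bp relative to the start. In these 3 subunits the restricted gene had no peak in the list and a widely expressed gene had one. The hypoxia-induced Ndufa4l2 was 124898 bp from a peak, against the 1395 bp peak at Ndufa4.

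In the other 3 pairs neither gene carried a peak. Cox4i2, known from lung, was 42162 bp from the nearest peak and Cox4i1 78391 bp. Cox6b2, the testis form of subunit 6B, was 11250 bp away and Cox6b1 23771 bp. Cox7b2, the testis form of subunit 7B, had the longest distance of all members, 619140 bp, and Cox7b was 3881 bp away. Cox5b (15588 bp) and Cox6c (319353 bp), which have no restricted partner among the members, also lacked a peak. Absence from a merged list with an unknown threshold does not show that a gene lacked RNA polymerase II. Of the muscle marker genes Actn2, Myh6, Myh7, Ckm and Mb, and the testis genes Prm1, Prm2, Tnp1 and Odf1, 0 had a peak, like the restricted isoforms.

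The 250 bases before the start are shown for the genes of the isoform pairs whose peak state differed, where the start table holds them, and for Cox6b1, a widely expressed gene without a peak. The sequences are from RefSeq, GRCm38.p6, read 5′ to 3′ on the strand of the gene. Capitals mark matches, on either strand, to 6 motifs. The NRF1 motif was searched as GCGCA and GCGC with any 1 base between them. The ETS motif, bound by a family that includes GABPA, was CCGGAAG. The YY1 motif was AAGATGGCG, the GC box was GGGCGG, the CCAAT box carries its letters in its name, and the TATA box was TATAAA. NRF1 and GABPA are known as activators of respiratory chain genes.
Cox7a1 (chr7:30183921-30184170, plus strand, no peak): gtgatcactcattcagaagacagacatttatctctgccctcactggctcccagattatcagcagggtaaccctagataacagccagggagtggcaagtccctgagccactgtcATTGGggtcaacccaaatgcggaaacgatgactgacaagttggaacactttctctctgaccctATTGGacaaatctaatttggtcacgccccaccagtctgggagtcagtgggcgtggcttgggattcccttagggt
Cox7a2 (chr9:79759854-79760103, minus strand, peak): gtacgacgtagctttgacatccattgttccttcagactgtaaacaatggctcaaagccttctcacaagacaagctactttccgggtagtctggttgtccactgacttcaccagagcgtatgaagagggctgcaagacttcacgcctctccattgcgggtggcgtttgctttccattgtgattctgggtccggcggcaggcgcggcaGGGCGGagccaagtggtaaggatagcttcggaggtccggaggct
Cox8b (chr7:140900447-140900696, minus strand, no peak): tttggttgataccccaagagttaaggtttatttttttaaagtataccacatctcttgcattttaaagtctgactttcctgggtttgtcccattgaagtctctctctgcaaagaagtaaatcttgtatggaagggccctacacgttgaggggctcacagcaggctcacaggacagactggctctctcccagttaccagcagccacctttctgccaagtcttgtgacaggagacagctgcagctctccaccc
Cox8a (chr19:7217617-7217866, minus strand, peak): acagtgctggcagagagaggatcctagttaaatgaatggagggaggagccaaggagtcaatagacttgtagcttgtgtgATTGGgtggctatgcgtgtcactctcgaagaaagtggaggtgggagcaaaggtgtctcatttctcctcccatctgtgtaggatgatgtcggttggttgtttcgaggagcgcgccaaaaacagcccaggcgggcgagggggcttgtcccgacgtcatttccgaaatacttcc
Cox6a1 (chr5:115348959-115349208, minus strand, peak): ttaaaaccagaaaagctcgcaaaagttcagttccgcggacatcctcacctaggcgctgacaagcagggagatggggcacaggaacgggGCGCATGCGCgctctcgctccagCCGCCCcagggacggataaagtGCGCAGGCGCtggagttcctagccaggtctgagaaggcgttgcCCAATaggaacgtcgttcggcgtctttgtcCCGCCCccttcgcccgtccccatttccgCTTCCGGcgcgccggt
Ndufa4 (chr6:11907451-11907700, minus strand, peak): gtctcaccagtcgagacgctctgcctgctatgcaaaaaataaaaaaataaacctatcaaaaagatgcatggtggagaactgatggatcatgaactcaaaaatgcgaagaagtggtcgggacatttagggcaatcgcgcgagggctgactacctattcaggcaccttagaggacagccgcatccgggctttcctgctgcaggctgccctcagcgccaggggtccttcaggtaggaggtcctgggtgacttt
Cox6b1 (chr7:30626115-30626364, minus strand, no peak): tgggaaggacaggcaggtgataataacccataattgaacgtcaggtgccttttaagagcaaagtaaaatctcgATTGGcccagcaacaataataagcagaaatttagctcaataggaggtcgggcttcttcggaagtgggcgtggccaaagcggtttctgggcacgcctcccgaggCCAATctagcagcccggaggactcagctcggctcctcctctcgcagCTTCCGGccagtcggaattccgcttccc

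Cox6a1 held 2 places that match the NRF1 motif, at -162 to -153 and -117 to -108 relative to the start, an ETS match at -16 to -10, 2 GC boxes and a CCAAT box. In these 250 bases Cox7a2 held a GC box, Cox8a a CCAAT box and Ndufa4 no match, and all 3 carried a peak. Cox7a1, without a peak, held 2 CCAAT boxes, and Cox8b held no match. When the search ran on to 50 bases after the start, Cox8a also held an ETS match and Cox8b a TATA box. Cox6b1 held an ETS match and 2 CCAAT boxes but no peak. Among these 7 genes, those with a peak and those without both included genes with and without an ETS match or a CCAAT box. For the ETS motif this rests on Cox6b1 alone, which comes from a pair in which neither gene had a peak. Cox6b2, Cox7b and Cox7b2, also without a peak and not shown, held a CCAAT box and no ETS match.

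Over the whole set, 78 of 96 members matched the RefSeq start table. In the 300 bases from 250 before to 50 after a start, the NRF1 motif was found in 19 of 78 members (24.4%), against 7.17% of the 17492 protein-coding genes with an entry. The ETS motif was found in 19 members (24.4%), against 12.9%, and the YY1 motif in 8 (10.3%), against 2.14%. The GC box (44.9% against 49.2%) and the CCAAT box (43.6% against 42.3%) were about as common in members as in all genes, and the TATA box was found in 10.3% of members against 14.8%. Matches to different motifs may overlap, and each was counted in its own share. Members that had their start inside an RNA polymerase II peak held the NRF1 motif in 12 of 45 cases (26.7%), and those that did not in 7 of 33 (21.2%). The ETS motif was in 22.2% of members with their start in a peak and 27.3% of those without. Among all genes with a start in a peak, the NRF1 motif was in 15.7%, the ETS motif in 25.5% and the GC box in 73.4%. The GC box was in 44.4% of members with their start in a peak. Among genes with NRF1 matches but no RNA polymerase II peak were Atp5o (nearest peak 55546 bp from its start), Atp5k (27688 bp) and Ndufb4 (114074 bp). Those 3 are named here after their values were seen.

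CpG dinucleotides, which are dense at many housekeeping gene starts, were also counted. The median ratio of observed to expected CpG in the same 300 bases was 0.831 in members against 0.576 in all genes with an entry, and it was 0.832 in all genes whose start lay in an RNA polymerase II peak. It was 0.855 in members with their start in a peak and 0.785 in those without. The GC content was 58.5% in members and 56.3% in all genes with an entry.

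Taken from the start rather than from either end of the span, RNA polymerase II peaks covered the start itself in 45 of 78 members (57.7%), against 23.0% of genes with an entry. Within 1000 bp of the start there was a peak in 54 members (69.2%), against 30.9%, and within 3000 bp in 55 members (70.5%), against 32.5%. By this count, within 3000 bp, ATP synthase had a peak at 11 of 15 genes, complex I at 25 of 34 and complex III at 4 of 5. The peaks that held a start reached a median of 452 bp upstream and 397 bp downstream in members, against 393 bp upstream and 452 bp downstream in all such genes. Their centre was downstream of the start in 23 of 45 members (51.1%), against 57.8% of genes.

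**Figure D3:**
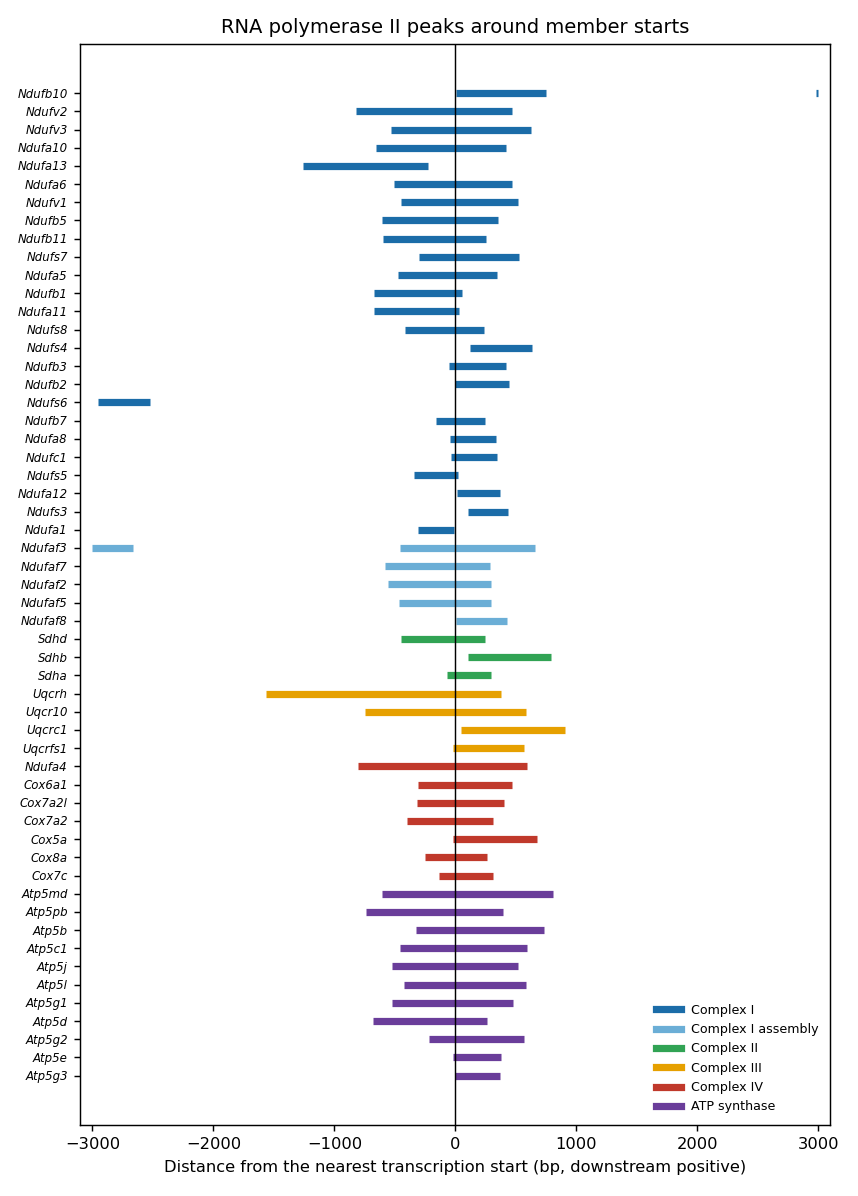
RNA polymerase II peaks (bars) of the 55 members with a peak within 3000 bp of a tabulated transcription start, ordered by complex and width; the x axis is the distance from the nearest start in bp, positive downstream, and peaks are drawn only within 3000 bp. Bars of 45 members cross the start, and the bar of Ndufs6 lies upstream, with its nearer edge at -2524 bp.

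Not every gene-end peak lay at a start. In Atp5h, Ndufb6 and Uqcr11 the peak was near the last base of the span only, and the start was 5749, 9485 and 6595 bp from it. Atp5h encodes subunit d of ATP synthase, and its peak also lay near Mrpl58. The Ndufb6 peaks lay near Smim27 and Topors, and the Uqcr11 peak near Mbd3. The Ndufs6 peak lay outside the span, 2524 bp upstream of the start and near Mrpl36. Measured from the ends of the span, Uqcr11 (2771 bp), Ndufs6 (2524 bp) and Atp5d (1636 bp) had their nearest peak just inside the 3000 bp window. For Atp5d this was a 248 bp peak past the last base, and another peak of 945 bp covered its start. Just outside it were Cox5a and Cox7b (3881 bp each) and Cox7a2 (4297 bp).

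Of the 65 members with a gene-end peak, 43 (66.2%) had a peak that was also within 3000 bp of an end of another protein-coding gene, against 47.6% of all genes with a gene-end peak. Such a peak cannot be assigned to a single gene from its position. The first examples by alphabet are Ndufa1 (near Rnf113a1), Ndufa11 (Vmac) and Ndufa12 (Nr2c1) in complex I, and Ndufaf2 (Ercc8), Ndufaf3 (Dalrd3, Impdh2 and Wdr6) and Ndufaf5 (Esf1) among its assembly factors. In complex II they are Sdha (Ccdc127) and Sdhd (Nkapd1 and Timm8b), and in complex III Uqcr10 (Zmat5), Uqcr11 (Mbd3) and Uqcrb (Mterf3 and Gm10767). Ndufa4 (Phf14) was the single case in complex IV, and Atp5a1 (Haus1), Atp5b (Baz2a) and Atp5c1 (Kin) come first in ATP synthase. A start of another gene on the opposite strand lay within 1000 bp upstream in 22 of 78 members (28.2%), against 8.48% of genes with an entry. It did so in 17 of 45 members whose start was in a peak (37.8%) and in 5 of 33 whose start was not (15.2%). The same split over all genes was not computed, so it is not known to be particular to members. Sdhd and Timm8b, which encodes a chaperone of the mitochondrial intermembrane space, start 52 bp apart. Atp5j and Gabpa, which encodes an ETS family factor, start 148 bp apart under 1 peak of 1041 bp. Ndufb5 starts 308 bp from Mrpl47, a mitochondrial ribosomal protein gene. Ndufa7 starts 10 bp from Rps28, a ribosomal protein gene, yet its start was 40566 bp from the nearest RNA polymerase II peak.

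Core subunits of complex I carry the flavin and the iron-sulphur clusters or hold the quinone site. Among those with a gene-end peak, widths were 1290 bp at the start of Ndufv2, 1008 bp for Ndufs1, 971 bp for Ndufv1, 829 bp for Ndufs7, 653 bp for Ndufs8 and 332 bp for Ndufs3. Of the 30 accessory subunits 23 had a peak. The widest complex I peaks were at Ndufb10 (1759 bp), Ndufv2 (1458 bp) and Ndufv3 (1154 bp), and the narrowest at Ndufa1 (302 bp) and Ndufs3 (332 bp). The Ndufb10 peak lay beyond the far end of the gene and near Rps2 and Rnf151, and the peak next to the start of Ndufb10 was 744 bp wide. The 1458 bp peak of Ndufv2 likewise lay past its last base, near Ankrd12.

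The complex I subunit genes without a gene-end peak included Ndufa3, Ndufa7, Ndufa9, Ndufab1, Ndufb4, Ndufb4b, Ndufb4c, Ndufb8 and Ndufc2. Ndufab1 encodes the mitochondrial acyl carrier protein, which also serves in fatty acid synthesis. The nearest peaks of these genes ranged from 7430 bp (Ndufb8) to 171239 bp (Ndufc2). Ndufb4b and Ndufb4c have symbols that mark them as copies of Ndufb4, and reads of near-identical copies may not be placed uniquely. How such reads were treated is not given in the sources used here, and their part in these counts was not tested. Of 10 members with a pseudogene annotated under the same symbol, 7 had a gene-end peak, among them Atp5c1, Cox7c and Uqcrh. The other 3 did not (Atp5k, Cox5b and Ndufab1). This count is near the share of all members, 67.7%, against 33.5% of all protein-coding genes, and it says nothing about how reads were placed.

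Of the complex I assembly factors, Ndufaf3 (1116 bp), Ndufaf7 (875 bp) and Ndufaf2 (852 bp) had the widest gene-end peaks, followed by Ndufaf5 (759 bp), Ndufaf8 (419 bp) and Ndufaf6 (370 bp). Ndufaf3 had another peak of 428 bp, with edges at -3090 and -2663 bp relative to its start. Ndufaf1 and Ndufaf4 had no gene-end peak (nearest at 11713 and 376177 bp). In complex II, Sdhd (695 bp), Sdhb (681 bp) and Sdha (364 bp) carried a peak and Sdhc, a membrane anchor, did not (17245 bp). The Sdhb peak began 108 bp downstream of the start.

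Complex III genes had the widest peak of the whole set. The Uqcrh peak, at the gene for the hinge protein, measured 1938 bp (chr4:116074696-116076633) and had its upstream edge at -1563 bp relative to the start, towards Lrrc41, whose start is 199 bp away on the other strand. Uqcr10 (1326 bp), Uqcr11 (1264 bp) and Uqcrq (1209 bp) followed. The core protein genes Uqcrc1 and Uqcrc2 had 861 and 464 bp, the Rieske protein gene Uqcrfs1 592 bp and Uqcrb 386 bp.

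All 5 subunit genes of the F1 head of ATP synthase had a gene-end peak. Widths were 802 bp for Atp5a1 (alpha), 1508 bp for Atp5b (beta), 1051 bp for Atp5c1 (gamma), 945 bp for Atp5d (delta) and 397 bp for Atp5e (epsilon). For Atp5b this widest peak lay past the last base, near Baz2a, and the peak on its start was 1061 bp wide. The 3 genes for subunit c, which forms the rotating ring in the membrane, each had their start in a peak, with 1000 bp for Atp5g1, 791 bp for Atp5g2 and 373 bp for Atp5g3. Atp5md (1409 bp) and Atp5pb (1138 bp) were the other genes among the widest. The members without a gene-end peak were Atp5o, which encodes the oligomycin sensitivity conferring protein, Atp5j2 and Atp5k, at 55546, 9562 and 27688 bp.

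**Figure D4:**
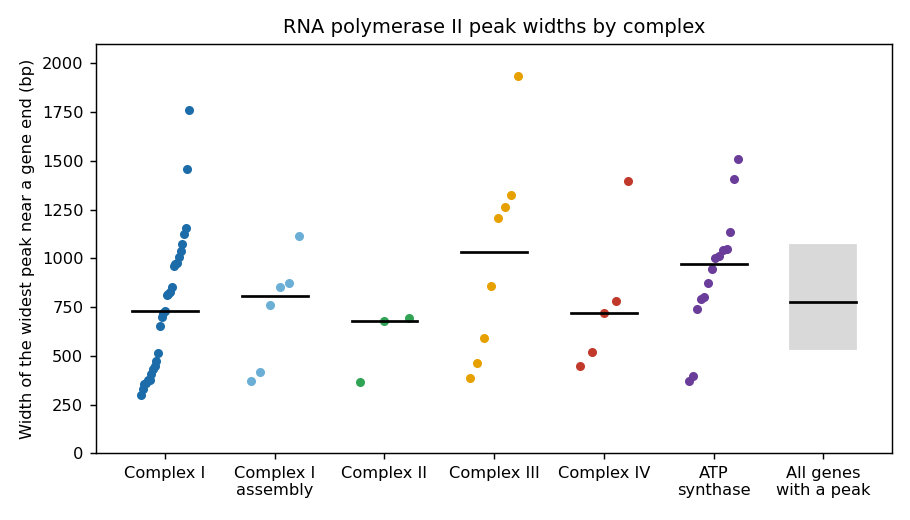
Width in bp of the widest RNA polymerase II peak near a gene end for each member with such a peak (points), by complex; black lines are medians. The last column gives the median and, as a grey box, the middle of the distribution from the lower to the upper quartile for all 7333 protein-coding genes with a gene-end peak. The points of the members spread from 302 to 1938 bp around a median near that of all genes.

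The width of the widest gene-end peak was 802 bp in the median over 65 members, against 777 bp over the 7333 genes with such a peak. The quartiles were 464 and 1036 bp in members and 536 and 1071 bp in all genes. Complex III (1035 bp, from 8 genes) and ATP synthase (972 bp, from 14 genes) had the highest medians, and complex II (681 bp, from 3 genes) the lowest. The quartiles of complex III were 560 and 1280 bp. These medians include peaks past the last base, such as those of Uqcr11 and Atp5h, so the order of the complexes is uncertain. Member peaks were thus more frequent but about as wide as those of other genes. The 6 members with 2 gene-end peaks were Atp5b, Atp5d, Ndufaf3, Ndufb10, Ndufb6 and Ndufv2.

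None of the other 3 lists touched a member. A DDX55 peak lay near an end of 0 of 96 members and in the span of 0, against 0.256% and 0.324% of all protein-coding genes. R-loop peaks were near 0 ends and in 0 spans, against 0.631% and 1.59%. H3K9me3 peaks were near 0 ends and in 0 spans, against 2.96% and 5.40%. At the background shares of DDX55 and R-loop peaks a set of 96 genes would hold few such genes, so these counts of 0 are near the background. The H3K9me3 share in spans is higher, and 0 of 96 members lies below it. Members have shorter spans than all genes, with medians of 7228 and 17169 bp, and the part of span length in this count was not tested.

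The nearest H3K9me3 peak to any member was 2424 bp wide (chr17:83495566-83497989) and lay 3928 bp from the end of Cox7a2l. Next were Cox7a1 (29.9 kb) and Sdhb (30.0 kb), and the median distance was 438 kb in members against 318 kb in all protein-coding genes. The nearest R-loop peak was 36.7 kb from Cox7a1, followed by Cox6a2 at 41.1 kb and Atp5k at 42.8 kb. The nearest DDX55 peak was 50.5 kb from Sdhc. The RNase H-treated samples share the R-loop list, so its peaks are not known to be sensitive to RNase H.

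**Figure D5:**
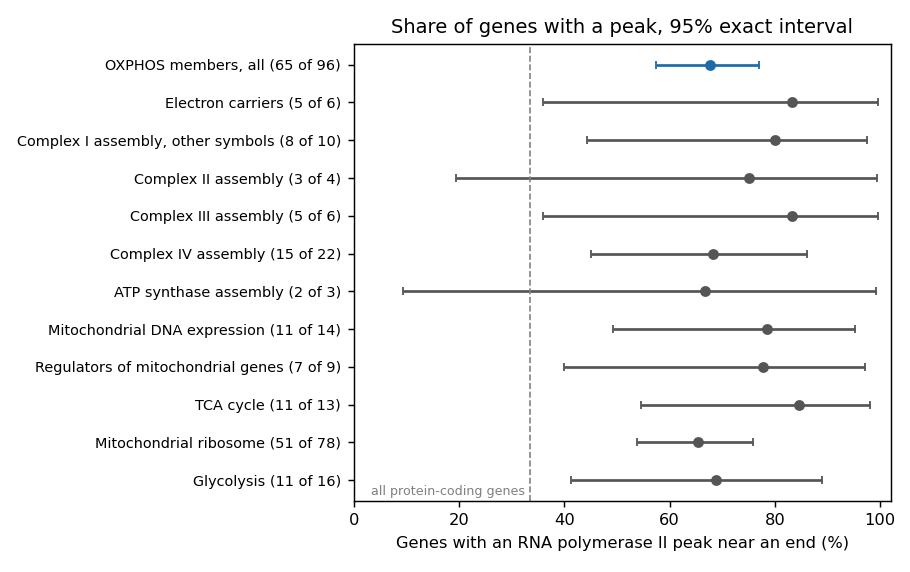
Percentage of genes (x axis) with an RNA polymerase II peak near a gene end, by the 3000 bp window, for the 96 members and for 11 lists of related metabolic and mitochondrial genes. Bars are 95% exact binomial intervals that cover counting error only, and counts stand beside the names. The dashed line is the share of all protein-coding genes, 33.5%, and every point lies to its right.

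Other genes of mitochondrial energy metabolism had shares of the same order. Among the electron carriers 5 of 6 had a gene-end peak, including Cyc1 (464 bp), the cytochrome c1 gene of complex III, and Cycs (1450 bp), the somatic cytochrome c gene. The exception was Cyct, the testis cytochrome c gene, 9537 bp from the nearest peak. The tricarboxylic acid cycle had 11 of 13, among them the citrate synthase gene Cs (1011 bp), and the mitochondrial ribosome 51 of 78. Complex IV assembly factors had 15 of 22 (68.2%, 95% exact interval 45.1 to 86.1), among them Surf1, Cox10 and Sco2.

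Assembly factors of complex I outside the symbol rule had a gene-end peak at 8 of 10 genes, those of complex II at 3 of 4, those of complex III at 5 of 6 and those of ATP synthase at 2 of 3. Genes for mitochondrial DNA expression had 11 of 14, among them Tfam (766 bp), which packages mitochondrial DNA and activates its transcription, whereas Polrmt, the mitochondrial RNA polymerase gene, was 31295 bp from a peak. Regulators of mitochondrial genes had 7 of 9. Nrf1 had a widest peak of 543 bp, Gabpa 1041 bp, and Ppargc1a, a coactivator known from muscle, liver and brown fat, was 73962 bp from a peak. Glycolysis had 11 of 16, with Gapdh at 1036 bp. Across these 11 lists DDX55 peaks were near 0 genes, against 0.256% of all protein-coding genes. H3K9me3 peaks were near Cox16 (489 bp) and Mterf1a (1073 bp), against 2.96% of all protein-coding genes. An R-loop peak was near Pkm (322 bp), against 0.631%. At these background shares lists of this size would hold few such genes, so the counts do not set the lists apart.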

How the data were processed

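RNA polymerase II, H3K9me3, DDX55 and R-loop CUT&Tag were analysed. The files deposited by the authors give peak positions (start and end in bp, 1 merged list for each target) and no score. Per the submitters' processing notes, coordinates are mm10 and the named tools are MACS3 3.0.0b1, ChIPseeker 1.30.3, Bowtie2 2.5.0, fastp 0.12.4 and SAMtools 1.15.1. Reads were 150 nt long per the labels. How peaks were thresholded, merged and set against controls is not given in the sources used here, and depth is unknown.

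Overlaps of at least 1 bp with the 3000 bp windows and spans were counted with numpy 2.4.6 and pandas 2.3.3 in Python 3.11.15, checked with bedtools 2.31.1 and tested on simulated data. Intervals are exact Clopper-Pearson, from scipy 1.17.1. Figures were drawn with matplotlib 3.10.9. Starts, strands and sequences came from a RefSeq start table of GRCm38.p6. No test between groups was possible, since DDX55 KO and WT samples share each list. Members and lists were chosen with earlier results of these data known. By rule, the text names the members without a gene-end peak, the isoform pairs, the 3 widest and 2 narrowest peaks per complex, members with 2 gene-end peaks or near the window limit, inner peaks, and up to 3 shared peaks per complex in alphabetical order. The values of 1 member are not reported here. Alternatives were other windows, overlaps, peak widths, member sets and start-based counts, of which 4 were added after seeing the data.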

Additional observations from a re-analysis of the deposited data

How the results depend on the processing

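The RNA polymerase II gene-end count of 65 of 96 members was 60 with windows of 1000 bp, 68 with 5000 bp, 64 by peak midpoint and 65 without peaks shared with H3K9me3. It was 59 of 88 without assembly factors, and 65 of 86 without restricted isoforms and the Ndufb4 copies, the last chosen after seeing the data. With the wider 50% of peaks it was 44, against 21.6% of all genes. From starts it was 55 of 78 with windows of 3000 bp, and, in alternatives added after seeing the data, 54 with 1000 bp and 45 with the start inside the peak. When at least 50% of the peak had to lie in the span, 41 members had a peak there (42.7%, against 26.0% of all genes) in place of 62. With 5000 bp windows, 1 member, Cox7a2l, had an H3K9me3 gene-end peak in place of 0. Counts of 0 for DDX55 and R-loop held in all alternatives run.

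By complex, complex IV had 8 of 20 with 5000 bp windows and 3 with wider peaks, in place of 5. With wider peaks complex I had 18 of 39 and complex III 5 of 8. From starts, complex III had 4 of 5, and 3 of 5 with the start inside the peak, where complex I had 18 of 34. With Ndufa4 and Ndufa4l2 counted in complex I, an alternative also added later, complex IV had 4 and complex I 30. The median width ranged from 759 to 802 bp. Leaving out replicates was not possible, because the lists are merged. No paired analysis was possible because the merged lists carry no value per sample.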

Other observations

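The mitochondrial chromosome, which encodes 13 further subunits of the same complexes, was outside the comparisons. There were 2 peaks there in each list other than the R-loop list, which held 0. The DDX55 peaks covered 123 to 6546 and 10911 to 16101, the RNA polymerase II peaks 145 to 6579 and 10863 to 16033, and the H3K9me3 peaks 123 to 6544 and 10924 to 16171. Between them they touched 7 of the 13 protein-coding genes, ND1, ND2 and COX1 under the first peak and ND4, ND5, ND6 and CYTB under the second, in all 3 lists. The IgG profile was not analysed here, so no background level can be set beside these peaks.

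Of 19 annotated pseudogenes whose symbols meet the same rule, 0 had a peak of any of the 4 lists near an end or in the span. Among protein-coding genes the gene-end shares were 33.5% for RNA polymerase II, 2.96% for H3K9me3, 0.631% for R-loops and 0.256% for DDX55. The share over all pseudogenes was not computed, so this count is not known to be particular to these pseudogenes.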
